A study of Homo sapiens with 36 samples.

Results

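KDM6A, KDM6B, KDM5A, KDM5B and KDM5C encode lysine demethylases that are targets of the inhibitor GSK-J4. The 5 genes were looked up by symbol in 3 tables of RNA-seq levels from human embryonal carcinoma cells, and all 5 had a row in each, out of 16431 genes for NT2/D1-A4 cells with GSK-J4, 17035 for 2102EP-C1 cells with GSK-J4 and 16459 for 2102EP-C1 cells with a knockdown. The rule that listed them uses gene names and no measured value, but it was written with earlier results of these data known. NT2/D1-A4 and 2102EP-C1 are each 1 clone, selected for cisplatin resistance, of a line derived from a testicular germ cell tumor.

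In both GSK-J4 experiments, cells were the vehicle control (control in the labels, and untreated hereafter), were exposed to cisplatin at 0.5 µM over 6 h, were kept in GSK-J4 at 1 µM over 3 days, or were treated with the inhibitor and then cisplatin. In the knockdown experiment, 2102EP-C1 cells carried the empty vector pLKO.1 or 2 lentiviral short hairpin RNAs, 1 against KDM6A and 1 against KDM6B (sh6A+6B), and were given PBS or the same cisplatin dose. Cells were collected 24 h after cisplatin, and each of the 4 arms had 3 libraries, for 12 per experiment and 36 in all. The series calls the 3 libraries of an arm biological replicates without saying what separates them, so the p-values measure the spread between these libraries, which may be technical.

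KDM6A (also called UTX) and KDM6B (also called JMJD3) remove methyl groups from lysine 27 of histone H3, a mark that the polycomb repressive complex places on silenced developmental genes. KDM5A, KDM5B and KDM5C remove methyl groups from lysine 4 of histone H3, a mark found at active promoters. Both families use iron and 2-oxoglutarate, and GSK-J4 is a cell-permeable prodrug whose active form competes with 2-oxoglutarate. It was made as an inhibitor of the KDM6 enzymes and also acts on KDM5 enzymes. The files hold RNA, not enzyme activity or histone marks.

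On GRCh38.p14, KDM6A (GeneID 7403) lies on chromosome X from 44873188 to 45112779 and KDM5C (GeneID 8242) on the same chromosome from 53176277 to 53225207. KDM6B (GeneID 23135) lies on chromosome 17 from 7834217 to 7854796, KDM5A (GeneID 5927) on chromosome 12 from 280057 to 389320 and KDM5B (GeneID 10765) on chromosome 1 from 202724495 to 202808421. All are protein-coding genes. The start of KDM5A overlaps that of CCDC77 (chromosome 12, 389273 to 442642, GENCODE), which was also measured. Without a stated strand setting for the counting, reads in the overlap cannot be assigned to 1 of these genes. Other genes annotated inside KDM6B, KDM5A, KDM5B and KDM5C were not analysed here.

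The bases just before the annotated starts of the KDM6 genes are shown because KDM6B rose with GSK-J4 and KDM6A did not pass the test. The sequences are from RefSeq (GRCh38.p14, plus strand), each with 250 bases 5′ of the start, and capitals mark matches to the GC box GGGCGG, the E-box CACGTG and the AP-1 site TGAGTCA on either strand.
KDM6A, chrX:44872938-44873187: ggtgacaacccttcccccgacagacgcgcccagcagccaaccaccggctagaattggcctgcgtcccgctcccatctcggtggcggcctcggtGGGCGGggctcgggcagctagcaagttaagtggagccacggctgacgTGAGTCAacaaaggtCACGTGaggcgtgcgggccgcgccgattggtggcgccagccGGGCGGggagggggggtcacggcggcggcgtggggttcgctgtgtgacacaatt
KDM6B, upstream start, chr17:7833967-7834216: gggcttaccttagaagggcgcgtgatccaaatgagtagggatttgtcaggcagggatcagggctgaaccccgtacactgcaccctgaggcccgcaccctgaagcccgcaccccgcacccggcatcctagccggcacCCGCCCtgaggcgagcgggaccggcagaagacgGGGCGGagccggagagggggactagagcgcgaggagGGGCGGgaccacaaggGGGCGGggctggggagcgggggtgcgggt
KDM6B, downstream start, chr17:7839667-7839916: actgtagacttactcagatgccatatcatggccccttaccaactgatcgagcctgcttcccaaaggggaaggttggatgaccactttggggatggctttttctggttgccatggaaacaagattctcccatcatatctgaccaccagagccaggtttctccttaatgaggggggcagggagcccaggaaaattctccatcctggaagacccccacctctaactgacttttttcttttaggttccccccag
The KDM6A window held 2 GC boxes, 1 E-box and 1 AP-1 site, the upstream KDM6B window held 4 GC boxes, and the downstream KDM6B window held no match. No marked motif overlapped another. Of 35116 RefSeq promoter windows of this length, 42.6% held a GC box, 6.34% an E-box and 4.2% an AP-1 site. These matches describe the sequence and do not show binding.

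Depth was 26842718 to 49521740 recovered reads per library in NT2/D1-A4 cells, 30250275 to 53645086 in the 2102EP-C1 experiment with GSK-J4 and 79382033 to 100872653 in the knockdown experiment. KDM6B had the fewest reads of the 5 genes, from 362 to 1198 in NT2/D1-A4, 758 to 1594 in 2102EP-C1 with GSK-J4 and 926 to 2567 in the knockdown experiment, and KDM5A the most, up to 39483. No 2 libraries of an arm were the same within counting noise. The NT2/D1-A4 libraries given GSK-J4 and cisplatin stood apart most, with a chi-square per gene of 26.8 between replicates 1 and 3, compared with 2.99 to 10.3 for the other pairs of that experiment. All 9 embryonal carcinoma markers were measured, and OCT4 (POU5F1) was at or above 8.93 log2 CPM (CPM are read counts scaled to each library's size, so that libraries of different depth can be compared) in every library. TDGF1 was low in NT2/D1-A4 cells (3.34 to 4.35) and high in 2102EP-C1 cells (9.65 to 9.95). Of 10 markers of blood, endothelial, stromal and other cells, PECAM1, VWF and GFAP were measured, with 3 to 594 reads per library, and the other 7 were not analysed here. In bulk RNA, fewer cells of a type and less RNA per cell cannot be told apart.

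KDM5 transcripts were more abundant than KDM6B transcripts in all untreated cells. Levels per kilobase of exon are given as CPM per kilobase over 3 libraries, and the 3 tables were normalized separately, so they are set side by side and not tested. In NT2/D1-A4 controls, the levels per kilobase (mean ± SD, n = 3) were 19.5 ± 0.84 for KDM5A, 14.1 ± 0.099 for KDM5C, 5.72 ± 0.12 for KDM5B, 3.37 ± 0.035 for KDM6A and 1.71 ± 0.11 for KDM6B. In 2102EP-C1 controls they were 28.4 ± 0.39, 22.9 ± 0.18, 10.2 ± 0.12, 4.99 ± 0.083 and 3.11 ± 0.27 in the same order, and in pLKO.1 cells 30 ± 0.48, 20.6 ± 0.21, 11.1 ± 0.10, 5.16 ± 0.052 and 3.35 ± 0.053. No neighbours in this order overlapped within their SD. The order of the upper members depended on the gene length used. With the MANE Select transcript, KDM5C was above KDM5A in all 3 sets of untreated cells, KDM6A and KDM5B were at 15.3 ± 0.16 and 15.3 ± 0.33 in NT2/D1-A4, and KDM6B stayed lowest, at 1.88 ± 0.12, 3.42 ± 0.30 and 3.68 ± 0.059.

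**Figure D1:**
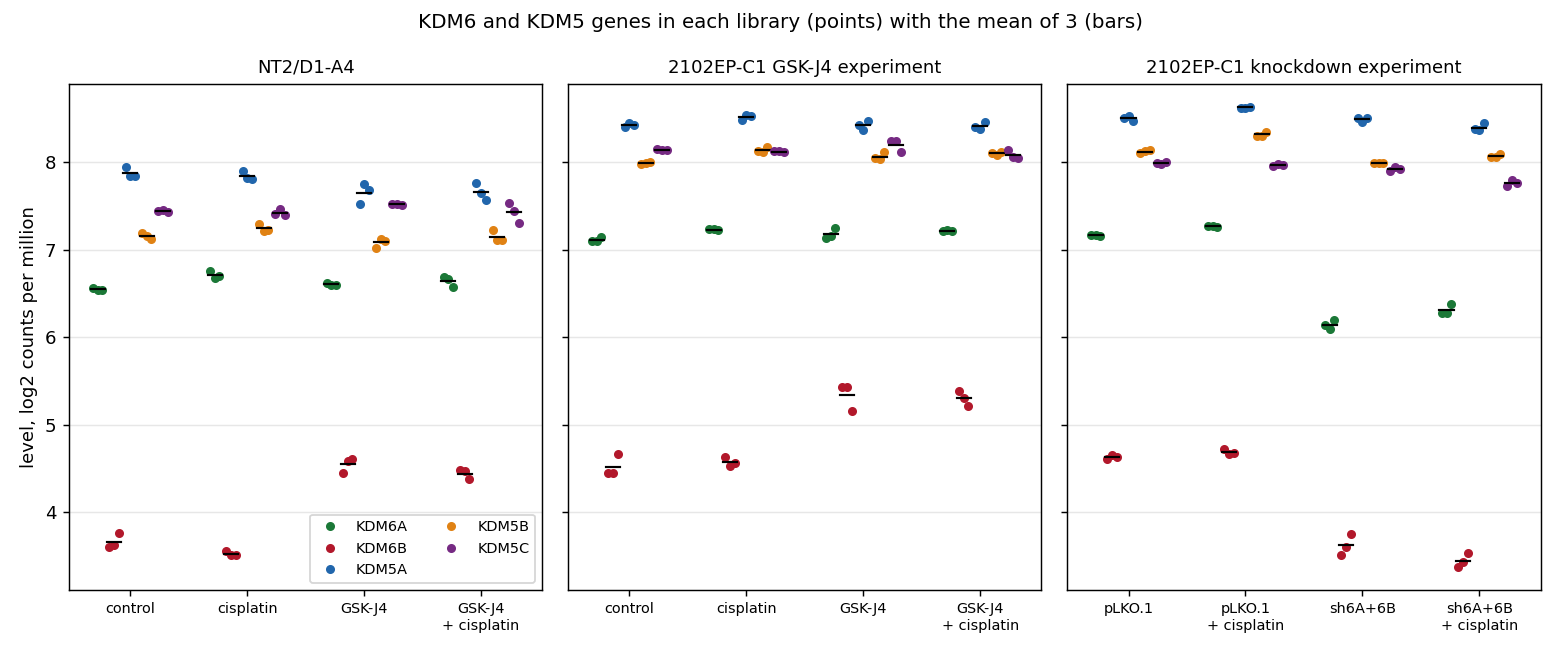
Levels of KDM6A, KDM6B, KDM5A, KDM5B and KDM5C (log2 CPM, not per length) by arm in the 3 experiments, with 1 point per library and a bar at the mean of 3. KDM6B rises with GSK-J4 in both lines, KDM6A and KDM6B are lower with sh6A+6B, and the KDM5 genes shift little.

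GSK-J4 raised KDM6B in both lines, and KDM6A passed the test in neither. In NT2/D1-A4 cells, KDM6B was at 3.60, 3.63 and 3.77 log2 CPM in the 3 control libraries and at 4.45, 4.59 and 4.61 with GSK-J4. The groups did not overlap, and the difference was 0.88 ± 0.06 (SE) on the log2 scale, a 1.84-fold rise (limma, adjusted p = 1.2e-09). In 2102EP-C1 cells, KDM6B was at 4.45, 4.45 and 4.67 in controls and at 5.43, 5.43 and 5.16 with GSK-J4. The lowest treated library was again above the highest control, and the rise was 0.81 ± 0.07, or 1.76-fold (adjusted p = 2.3e-10). Only 4.4% of all genes in NT2/D1-A4 and 2.3% in 2102EP-C1 had a larger log2 increase.

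KDM6A, the other GSK-J4 target for lysine 27, was at 6.56, 6.54 and 6.54 in NT2/D1-A4 controls and 6.62, 6.6 and 6.6 with GSK-J4. The treated libraries were all higher, but the difference of 0.06 did not pass the test (95% confidence interval -0.02 to 0.13, adjusted p = 0.24 by limma). In 2102EP-C1 cells KDM6A was at 7.10, 7.10 and 7.14 in controls and 7.13, 7.15 and 7.24 with GSK-J4, which overlapped (0.06, interval -0.01 to 0.12, adjusted p = 0.17). A change in KDM6A beyond these intervals was therefore not seen, and a smaller one cannot be told from none.

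Of the KDM5 genes, KDM5A fell under GSK-J4 in NT2/D1-A4, from 7.94, 7.84 and 7.84 to 7.52, 7.75 and 7.68, a log2 difference of -0.22 ± 0.05 (limma, adjusted p = 0.0022). CCDC77, which shares the KDM5A start region, fell by 0.33 in the same comparison (adjusted p = 2.9e-05), and its part in the KDM5A value was not tested. In 2102EP-C1 cells KDM5A did not pass (-0.00, interval -0.07 to 0.07), but it did with a length and GC trend removed from each library (-0.084, adjusted p = 0.0051). KDM5B was slightly higher in 2102EP-C1 cells, at 8.04, 8.03 and 8.11 compared with 7.97, 7.99 and 8.0 (0.08 ± 0.03, adjusted p = 0.046), and at -0.08 (adjusted p = 0.13) in NT2/D1-A4 cells. The KDM5B call was lost in 9 of the 12 fits that left out 1 library, namely each control, each cisplatin library, GSK-J4 replicate 1 and combined replicates 2 and 3, and KDM5B was at -0.0075 (adjusted p = 0.83) with the length and GC trend removed. KDM5C passed in neither line (0.08 and 0.06, adjusted p = 0.16 and 0.2).

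Thus 2 of the 5 genes passed an adjusted p of 0.05 with GSK-J4 alone in NT2/D1-A4, where 48.3% of all genes did (24.5% up and 23.8% down), and 2 of 5 did in 2102EP-C1, where 35.2% of all genes did (19.2% up and 16.0% down). KDM6B was the 1 member in each line also past the fold change of 1.3 used by the study, a limit that 20.3% and 10.9% of all genes passed. The count for NT2/D1-A4 was 4 of 5 with scaling to library size alone and also with the length and GC trend removed. With that trend removed the count for 2102EP-C1 stayed at 2, but KDM5A was called in place of KDM5B.

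The knockdown lowered both of its targets by about the same amount. KDM6A was at 7.16, 7.17 and 7.15 log2 CPM in pLKO.1 cells and at 6.14, 6.09 and 6.20 in sh6A+6B cells. KDM6B was at 4.61, 4.66 and 4.63 in pLKO.1 cells and at 3.51, 3.61 and 3.75 in sh6A+6B cells. Neither pair of groups overlapped. KDM6A changed by -1.01 ± 0.03, which left 49.5% of its level (limma, adjusted p = 2.1e-18), and KDM6B by -1.01 ± 0.05, which left 49.6% (adjusted p = 1.8e-14). Both are the targeted genes, so this checks the labels. Only 38 and 39 of 16459 genes fell further.

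The KDM5 genes were not targeted, and their differences in sh6A+6B cells were small. KDM5B fell from 8.10, 8.12 and 8.13 to 7.99 in all 3 libraries (-0.12 ± 0.02, limma adjusted p = 1.1e-06), and KDM5C fell from 7.99, 7.97 and 8.0 to 7.90, 7.94 and 7.92 (-0.07 ± 0.02, adjusted p = 0.0038). Neither pair of groups overlapped, and the largest of these log2 changes left 91.8% of the pLKO.1 level. How many of all genes separate in this way was not counted. KDM5A did not pass (-0.01, interval -0.05 to 0.03). In this comparison 4 of the 5 genes were called, all down, beside 52.8% of all genes in either direction (25.6% up and 27.2% down). These 4 include the targets KDM6A and KDM6B, whose fall was set by the design. The targets were also the 2 of 5 past 1.3-fold, beside 12.1% of all genes. With the length and GC trend removed, KDM5C was at -0.028 (adjusted p = 0.1) and KDM5A at -0.073 (adjusted p = 8.3e-05).

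**Figure D2:**
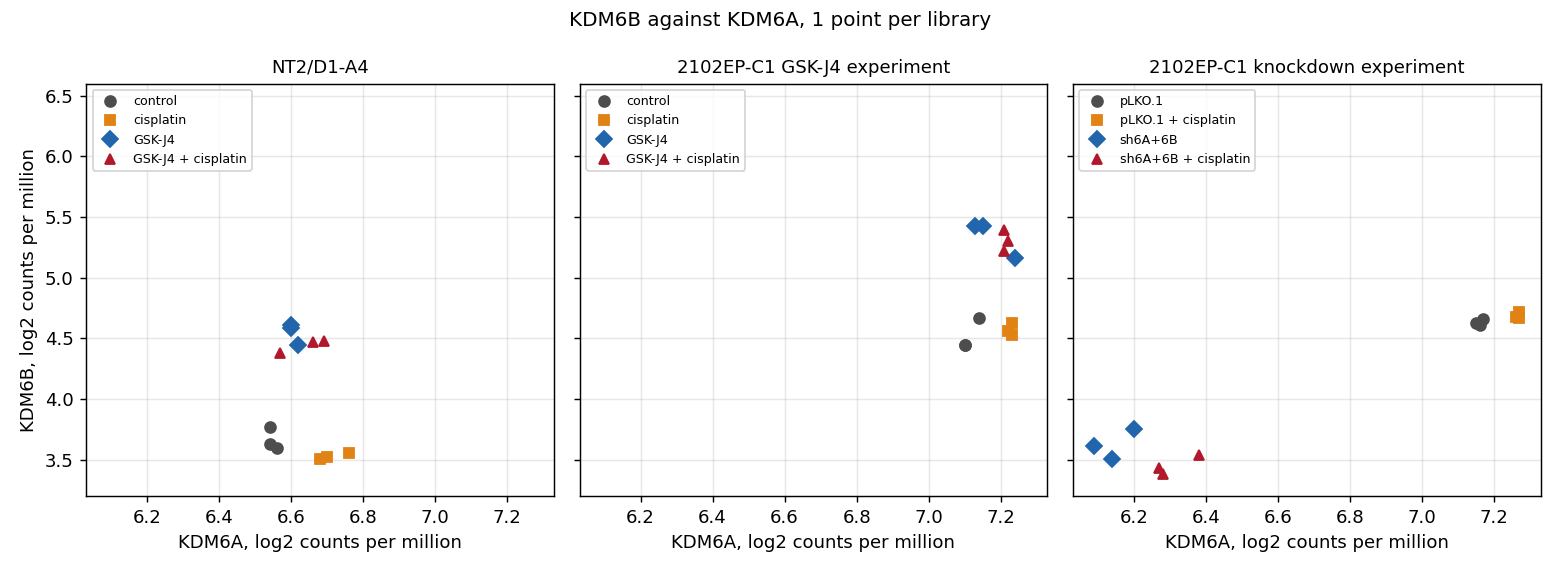
KDM6B against KDM6A in each library (both axes log2 CPM), by arm. GSK-J4 moves the libraries up the KDM6B axis with KDM6A between 6.57 and 6.69 in NT2/D1-A4 and between 7.13 and 7.24 in 2102EP-C1, and sh6A+6B moves them down both axes.

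The balance of the KDM6 genes was followed by their ratio. The log2 ratio of KDM6B to KDM6A, per kilobase of exon union, was -0.98 ± 0.10 (SD, n = 3) in NT2/D1-A4 controls and -0.15 ± 0.10 with GSK-J4. It was -0.69 ± 0.10 in 2102EP-C1 controls and 0.07 ± 0.21 with GSK-J4. The differences of 0.83 and 0.76 had groups that did not overlap, and an exact two-sided permutation test gave p = 0.10 for each, which is the smallest p that 3 libraries against 3 allow. The ratio was -0.62 ± 0.02 in pLKO.1 cells and -0.62 ± 0.10 in sh6A+6B cells, with overlapping libraries (difference 0.00, exact permutation p = 1.00). Within cisplatin-treated cells, the difference was -0.29 for sh6A+6B, and 0.99 and 0.75 for GSK-J4 in NT2/D1-A4 and 2102EP-C1. Cisplatin differences were -0.34 within sh6A+6B cells, and -0.30 and -0.14 in NT2/D1-A4 without and with GSK-J4. None of these groups overlapped (exact permutation p = 0.10 for each). With cisplatin, the libraries overlapped in pLKO.1 cells (-0.05) and in 2102EP-C1 cells without and with GSK-J4 (-0.06 and -0.07). Differences between arms do not depend on the gene length, but the ratio itself does. With the MANE Select transcript it was -3.03 in NT2/D1-A4 controls and -2.20 with GSK-J4, so KDM6B was below KDM6A in every arm.

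Cisplatin alone was followed by small differences. In NT2/D1-A4 cells, KDM6A rose from 6.56, 6.54 and 6.54 to 6.76, 6.68 and 6.70 (0.17 ± 0.04, limma adjusted p = 0.0097), and no other member passed. KDM6B was at -0.13 (adjusted p = 0.18). In 2102EP-C1 cells, KDM5B rose from 7.97, 7.99 and 8.0 to 8.12, 8.11 and 8.17 (0.15 ± 0.03, adjusted p = 0.0032), while KDM6A was at 0.11 with an adjusted p of 0.051 just over the threshold. Each count was 1 of 5, beside 9.43% of all genes in NT2/D1-A4 (5.85% up and 3.58% down) and 4.08% in 2102EP-C1 (3.06% up and 1.02% down). No member was past 1.3-fold, beside 2.45% and 1.07% of all genes. In 2102EP-C1 the count was 3 of 5 when only the libraries compared were fitted, with KDM6A and KDM5A added, and it was 2 or 3 without GSK-J4 replicate 2, GSK-J4 replicate 3 or combined replicate 1.

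In pLKO.1 cells, cisplatin raised KDM5B from 8.10, 8.12 and 8.13 to 8.30, 8.30 and 8.34 (0.20 ± 0.02, limma adjusted p = 2.3e-09). KDM5A rose from 8.50, 8.52 and 8.47 to 8.62, 8.62 and 8.63 (0.12 ± 0.02, adjusted p = 1.6e-05), and KDM6A rose by 0.10 ± 0.03 (adjusted p = 0.004). The treated libraries of each of these genes were above all untreated pLKO.1 libraries. The share of all genes that separate in this way was not counted. Here 3 of 5 genes were called, all up, beside 36.1% of all genes in either direction and 17.9% up, and none was past 1.3-fold, which 3.00% of all genes were. KDM6A did not keep its direction once the length and GC trend was removed (-0.033, adjusted p = 0.31), and KDM5A was then at 0.021 (adjusted p = 0.29). KDM6B and KDM5C did not pass (0.06 and -0.02).

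**Figure D3:**
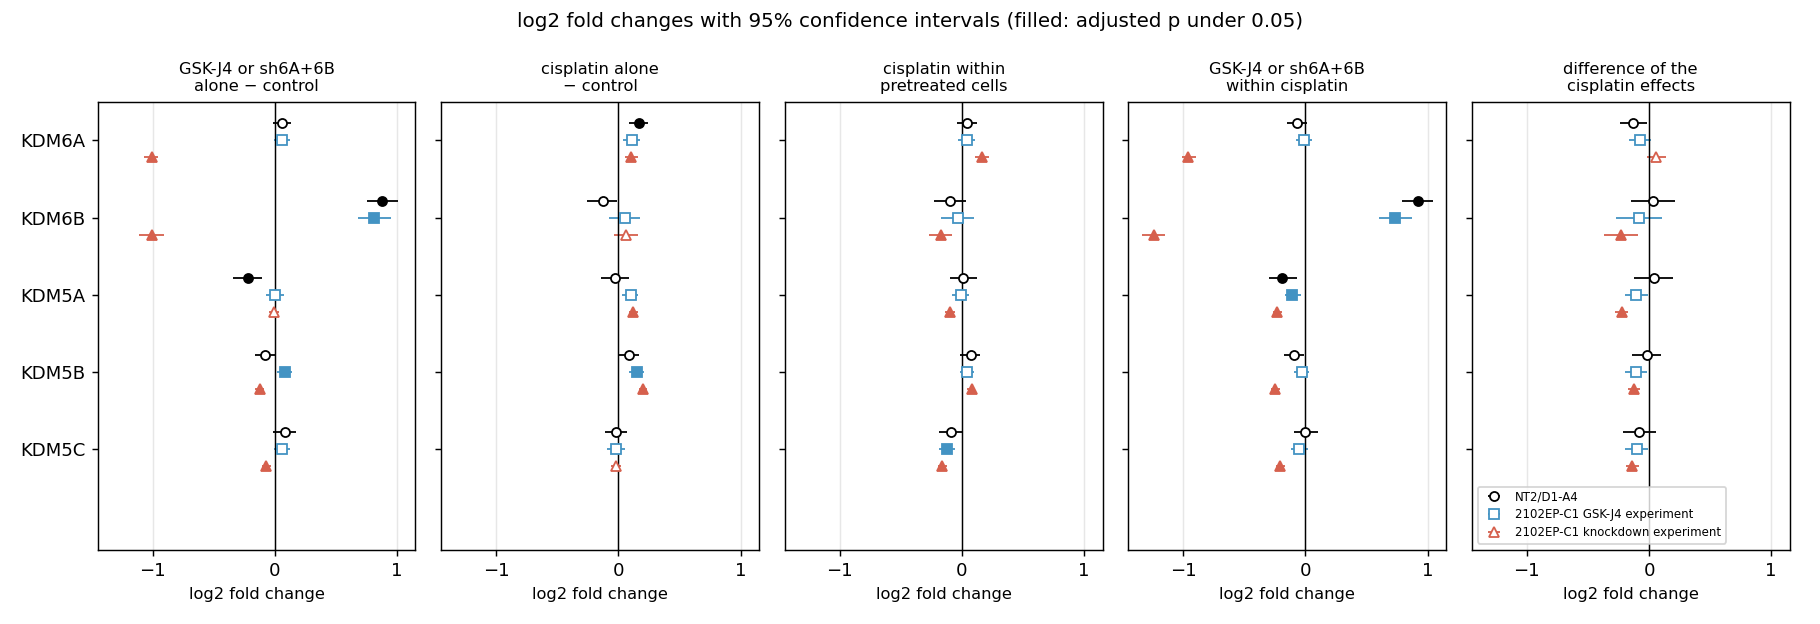
The log2 fold change of each gene with its 95% confidence interval in the 5 comparisons, with the 3 experiments as symbols that are filled where the adjusted p was under 0.05. The KDM6B changes with GSK-J4 (0.88 and 0.81) and the KDM6A and KDM6B changes with sh6A+6B (-1.01 each) stand far from 0. So do those within cisplatin-treated cells, with KDM6B at 0.92 and 0.73 for GSK-J4, and KDM6B at -1.24 and KDM6A at -0.96 for sh6A+6B. In the panels of the cisplatin effects and of their difference, the estimates stay within 0.25 of 0, and some intervals reach further.

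Within GSK-J4 cells, cisplatin changed few members. None of the 5 passed in NT2/D1-A4 (1.26% of all genes did, 0.712% up and 0.548% down, with 0.377% also past 1.3-fold), and KDM5C was nearest, at -0.09 with an unadjusted limma p of 0.047. In the fit without combined replicate 1 the count was 1. In 2102EP-C1 cells KDM5C fell from 8.24, 8.24 and 8.11 to 8.13, 8.05 and 8.04 (-0.12 ± 0.03, adjusted p = 0.012), although the libraries overlapped. That was 1 of 5 beside 15.7% of all genes, 7.64% up and 8.10% down, and it was not past 1.3-fold, which 2.22% were. This KDM5C call was lost without GSK-J4 replicate 1, GSK-J4 replicate 2 or combined replicate 2, and when only the libraries compared were fitted.

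Within sh6A+6B cells, cisplatin moved the 5 genes in both directions. KDM6A rose from 6.14, 6.09 and 6.20 to 6.28, 6.27 and 6.38 (0.16 ± 0.03, limma adjusted p = 2.8e-05), and KDM5B rose from 7.99 in each library to 8.06, 8.06 and 8.09 (0.08 ± 0.02, adjusted p = 5.0e-04). KDM6B fell from 3.51, 3.61 and 3.75 to 3.38, 3.43 and 3.54 with overlap (-0.17 ± 0.05, adjusted p = 0.0043), and this call was lost without sh6A+6B replicate 3 (-0.110, adjusted p = 0.055). KDM5A fell from 8.50, 8.46 and 8.50 to 8.37, 8.36 and 8.44 (-0.10 ± 0.02, adjusted p = 1.2e-04) and KDM5C from 7.90, 7.94 and 7.92 to 7.72, 7.79 and 7.76 (-0.16 ± 0.02, adjusted p = 3.0e-07), neither with overlap. Such separation was not counted over all genes. All 5 were called, 2 up and 3 down, beside 44.8% of all genes (22.1% up and 22.7% down), and none was past 1.3-fold beside 3.52%. With the length and GC trend removed, 3 of 5 were called, and KDM6B (-0.030) and KDM5A (-0.032) were not.

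The cisplatin effect was then compared between cells with and without pretreatment. With GSK-J4, no member differed by limma at an adjusted p under 0.05 in either line. Of all genes, 0.0426% (7 in number) did in NT2/D1-A4. In 2102EP-C1 2.38% did, 0.734% up and 1.64% down, with 0.857% also past 1.3-fold. At an unadjusted p under 0.05 it was 1 of 5 in NT2/D1-A4, beside 1174 of 16431 genes. It was 3 of 5 in 2102EP-C1, beside 2999 of 17035 genes. In 2102EP-C1 the differences were all negative, from -0.07 for KDM6A to -0.11 for KDM5B, and 1 gene, KDM5C, was called without GSK-J4 replicate 3. With sh6A+6B, 4 of 5 genes were called, all with a lower cisplatin effect than in pLKO.1 cells, beside 35.1% of all genes in either direction and 18.0% in that direction, and none of the 5 was past 1.3-fold, beside 3.77%. KDM6B differed by -0.23 ± 0.07 (adjusted p = 0.0082), KDM5A by -0.22 ± 0.03 (adjusted p = 3.7e-07), KDM5C by -0.14 ± 0.03 (adjusted p = 3.0e-04) and KDM5B by -0.12 ± 0.02 (adjusted p = 1.9e-04). KDM6A was at 0.06 (adjusted p = 0.26).

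These 4 differences did not hold when a smooth trend with transcript length and GC content was removed from each library. KDM6B was then at -0.077 (limma adjusted p = 0.36), KDM5A at -0.053 (adjusted p = 0.054), KDM5C at -0.021 (adjusted p = 0.49) and KDM5B on the other side of 0 at 0.037 (adjusted p = 0.17), while KDM6A was called at 0.238 (adjusted p = 1.7e-06). Leaving out any 1 of the 12 libraries changed none of these 4 calls. The share of these differences that follows length or GC content and the share that does not were not tested further.

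Within cisplatin-treated cells, GSK-J4 again raised KDM6B. In NT2/D1-A4 it was at 3.56, 3.51 and 3.52 with cisplatin and 4.48, 4.47 and 4.38 with both (0.92 ± 0.06, limma adjusted p = 8.2e-10), and in 2102EP-C1 at 4.63, 4.53 and 4.56 and then 5.39, 5.30 and 5.22 (0.73 ± 0.07, adjusted p = 8.7e-10). KDM5A fell in both lines, by 0.19 ± 0.05 (adjusted p = 0.0086) and by 0.11 ± 0.03 (adjusted p = 0.0074). Its libraries did not overlap in either, a separation that was not counted over all genes. With KDM6B and KDM5A, 2 of 5 were called in each line, beside 48.4% of all genes in NT2/D1-A4 (24.1% up and 24.2% down) and 49.4% in 2102EP-C1 (25.5% up and 23.9% down). KDM6B alone was past 1.3-fold, beside 20.7% and 19.3% of all genes. Without combined replicate 1, 4 of 5 were called in NT2/D1-A4, and with the length and GC trend removed 4 of 5 were called in 2102EP-C1. These comparisons do not share control libraries with GSK-J4 alone.

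Within cisplatin-treated cells, sh6A+6B left 51.6% of KDM6A and 42.2% of KDM6B. KDM6A went from 7.27, 7.27 and 7.26 to 6.28, 6.27 and 6.38 (-0.96 ± 0.03, limma adjusted p = 3.1e-18), and KDM6B from 4.72, 4.67 and 4.68 to 3.38, 3.43 and 3.54 (-1.24 ± 0.05, adjusted p = 2.1e-16). Only 10 of 16459 genes fell further than KDM6B. KDM5A (-0.23), KDM5B (-0.25) and KDM5C (-0.21) also fell, each with an SE of 0.02 and a limma adjusted p of 1.8e-09 or less. For each member the sh6A+6B libraries lay below the pLKO.1 libraries. The share of all genes that separate in this way was not counted. All 5 genes were called down, beside 61.6% of all genes in either direction and 30.7% down. The fall of KDM6A and KDM6B, the targets, was set by the design. Only these 2 were past 1.3-fold, beside 15.2% of all genes. The 3 KDM5 genes stayed called with the length and GC trend removed, at -0.125, -0.137 and -0.049.

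The other genes of these pathways are given from lists of known components. Each count below for GSK-J4 or sh6A+6B alone is read against all genes. GSK-J4 alone raised 24.5% and lowered 23.8% of them in NT2/D1-A4 and raised 19.2% and lowered 16.0% in 2102EP-C1. The knockdown alone raised 25.6% and lowered 27.2%. KDM6A sits in the KMT2C and KMT2D methyltransferase complexes, and of 9 complex genes 7 fell and none rose with GSK-J4 alone in NT2/D1-A4 (median log2 change -0.23, all genes 0.01), 2 fell in 2102EP-C1 (median -0.05, all genes -0.00), and 6 fell in sh6A+6B cells (median -0.13, all genes -0.00). KMT2C, the enzyme of one such complex, was at -0.59 ± 0.09 (limma adjusted p = 1.7e-05) in NT2/D1-A4, and PAXIP1, a shared subunit, was at -0.40 and -0.23 in the GSK-J4 lines. WDR5 and ASH2L, core subunits of all such complexes, fell by 0.28 and 0.25 with sh6A+6B. Within cisplatin-treated cells, sh6A+6B lowered 7 of 9 and raised 1, beside 30.7% of all genes lowered and 30.9% raised. KMT2D was at -0.91 ± 0.03 (limma adjusted p = 1.7e-17), KMT2C at -0.66 ± 0.03 (adjusted p = 9.2e-15) and DPY30 at 0.30 ± 0.02 (adjusted p = 1.6e-11). With the length and GC trend removed, KMT2D was at -0.446 and KMT2C at -0.436. KMT2D was picked by the study on these samples and is not independent evidence.

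**Figure D4:**
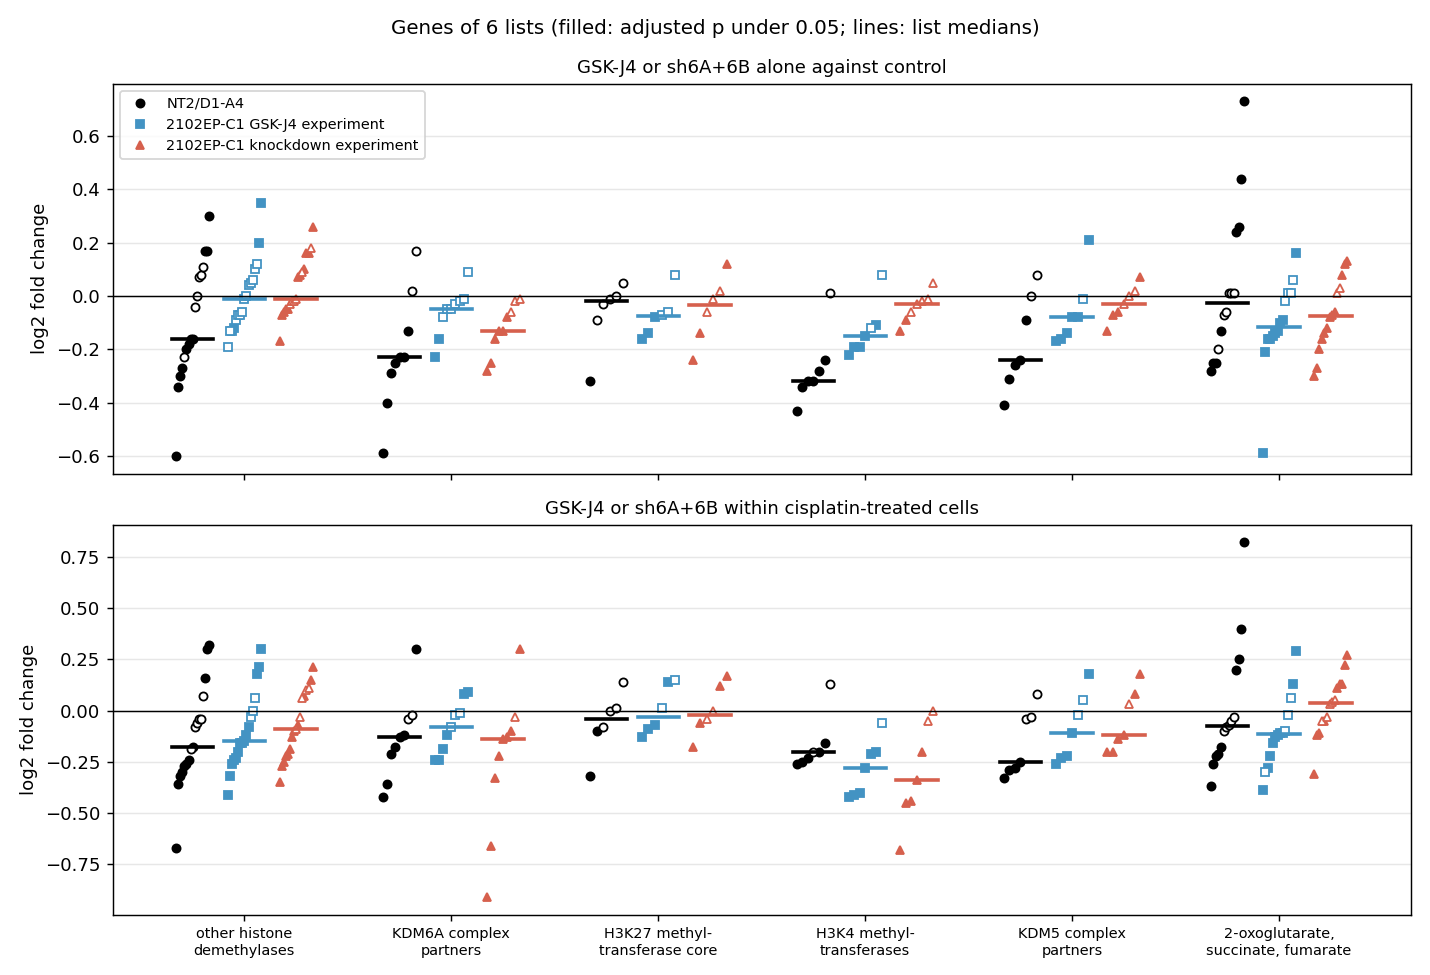
The log2 fold change of each gene of 6 lists with GSK-J4 or sh6A+6B alone and within cisplatin-treated cells, with symbols for the 3 experiments filled where the adjusted p was under 0.05 and a line at each list's median. The H3 lysine 4 methyltransferases and their subunits lie mostly below 0 in both panels, with list medians of -0.32, -0.15 and -0.03 above and -0.20, -0.28 and -0.34 below.

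The other lysine 4 methyltransferases, the enzymes opposite to the KDM5 genes, were listed together with their subunits, 7 genes in all. Of these, GSK-J4 alone lowered 6 in NT2/D1-A4 and 5 in 2102EP-C1, and sh6A+6B alone lowered 2, with none raised. The shares of all genes lowered were 23.8%, 16.0% and 27.2%, and 2 of 7 is near the last of these. Within cisplatin-treated cells 5, 6 and 5 of 7 fell in the 3 experiments and none rose. Of all genes, 24.2%, 23.9% and 30.7% were lowered in these comparisons and 24.1%, 25.5% and 30.9% raised. With sh6A+6B and cisplatin, KMT2A was at -0.68 ± 0.02 (limma adjusted p = 6.9e-17), SETD1B at -0.45, HCFC1 at -0.44 and KMT2B at -0.34 (adjusted p of 1.4e-09 or less). KMT2A, also picked by the study on these samples, was at -0.432 and KMT2B at -0.016 (adjusted p = 0.58) with the length and GC trend removed. The KDM5 genes act with the SIN3 and HDAC corepressors, and of 7 such partners GSK-J4 alone lowered 5 and raised 0 in NT2/D1-A4 and lowered 5 and raised 1 in 2102EP-C1, with SIN3A at -0.31 and -0.14 and PHF12 at -0.26 and -0.17. Of all genes, 23.8% and 16.0% were lowered and 24.5% and 19.2% raised. In sh6A+6B cells 3 fell and 1, PHF12, rose (0.07).

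The core of the methyltransferase that places the lysine 27 mark was also listed. Of 6 genes, GSK-J4 lowered 1 in NT2/D1-A4 (SUZ12, -0.32 ± 0.03, limma adjusted p = 5.0e-07) and 3 in 2102EP-C1 (EED -0.16, SUZ12 -0.14 and RBBP4 -0.08), beside 23.8% and 16.0% of all genes lowered, so the NT2/D1-A4 count is not above the background. In sh6A+6B cells EZH2, the catalytic subunit, fell by 0.24 (adjusted p = 2.7e-09) and RBBP4 by 0.14, and EED rose by 0.12. Within cisplatin-treated cells, 2 of 6 fell in NT2/D1-A4, 3 fell and EZH2 rose (0.14) in 2102EP-C1, and 2 fell and 2 rose with sh6A+6B. Of all genes, 24.2%, 23.9% and 30.7% fell in these comparisons and 24.1%, 25.5% and 30.9% rose. The NT2/D1-A4 and sh6A+6B counts are near these shares.

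Among 18 other histone demethylases, 17 were measured and RIOX1 was not analysed here. GSK-J4 alone lowered 8 and raised 3 in NT2/D1-A4, lowered 2 and raised 2 in 2102EP-C1, and sh6A+6B lowered 5 and raised 6. In either direction 48.3%, 35.2% and 52.8% of all genes were called, and the 2102EP-C1 count is below that share. KDM7A and PHF2, relatives that act on lysines 9 or 27 of H3, rose with GSK-J4 in both lines (KDM7A 0.17 and 0.35, PHF2 0.17 and 0.20), and JMJD6 fell in NT2/D1-A4 (-0.60 ± 0.06, limma adjusted p = 3.8e-07). KDM3A rose in sh6A+6B cells (0.26 ± 0.02, adjusted p = 1.4e-11). KDM2B fell in all 3 experiments (-0.27, -0.13 and -0.17) and KDM4A rose in NT2/D1-A4 (0.30), and both were picked by the study on these samples. None of these demethylases changed as much as KDM6B with GSK-J4.

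Enzymes that make or clear 2-oxoglutarate, succinate and fumarate, the cofactor and the competing metabolites of the KDM6 and KDM5 demethylases, were called in both directions. Of 14, GSK-J4 alone raised 4 and lowered 4 in NT2/D1-A4, where IDH2 rose by 0.73 ± 0.08 (limma adjusted p = 2.4e-07) and IDH1 by 0.44 ± 0.04 (adjusted p = 7.7e-08). In 2102EP-C1 it raised 1 and lowered 9, with D2HGDH at -0.59 ± 0.14 (adjusted p = 0.0023). With sh6A+6B 3 rose and 9 fell, with FH at -0.27 and IDH3B at -0.20. In either direction 48.3%, 35.2% and 52.8% of all genes were called, and the NT2/D1-A4 count of 8 of 14 is near its share. The difference between the lines was not tested, since their tables were normalized separately.

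The embryonal carcinoma markers moved as well. GSK-J4 alone lowered 6 of 9 and raised 2 in NT2/D1-A4 (DNMT3B -0.79, SOX2 -0.30, TDGF1 0.75) and lowered 5 and raised 1 in 2102EP-C1 (DNMT3B -0.43, NANOG -0.24). With sh6A+6B 5 fell and 3 rose (DNMT3B -0.35, SOX2 0.16). These counts stand beside 48.3%, 35.2% and 52.8% of all genes called in either direction. The study reported the fall of DNMT3B from these samples, so the fall seen here is not independent evidence. Apart from these libraries, the study also reported lower DNMT3B after the knockdown by RT-PCR and western blot. In log2 CPM, the summed level of the 9 genes lay between 12.3 and 12.7 in NT2/D1-A4, 13.0 to 13.3 in 2102EP-C1 with GSK-J4 and 13.0 to 13.2 in the knockdown experiment. The markers' part in the KDM6B and KDM5A values was not tested.

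The members were not alike across libraries. After centering on each experiment's mean over the 36 libraries, Pearson's r between KDM6A and KDM6B was 0.66, made of 0.97 in the knockdown experiment, -0.15 in NT2/D1-A4 and 0.20 in 2102EP-C1 with GSK-J4. Both genes are the knockdown targets, so a high r in that experiment was set by the design. KDM6B and KDM5A were at -0.77, -0.54 and 0.77 in NT2/D1-A4, 2102EP-C1 with GSK-J4 and the knockdown experiment. These values describe libraries that share arms and depth. Among 11464 genes measured in all 3 tables, those most like KDM6B were EIF4EBP2 (r = 0.949), WWC3 (0.938) and NUP210 (0.925), each at 0.87 or more within every experiment. Those most like KDM6A were PXDN (0.987), ANKRD46 (0.965) and SPIRE1 (0.950), at 0.99 or more in the knockdown experiment and at 0.13 to 0.76 in the others. MACF1 (0.959), MGA (0.958) and RANBP2 (0.956) were most like KDM5A, GAS7 (0.90), MAP4K4 (0.883) and POLQ (0.872) most like KDM5B, and UBA1 (0.907), TBC1D13 (0.893) and PPARD (0.880) most like KDM5C.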

How the data were processed

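RNA from 36 libraries was read as gene tables. Per the methods, the authors trimmed stranded mRNA reads with Trimmomatic, aligned them to GRCh38.p14 with STAR and counted them with featureCounts. Genes below 0.5 CPM in all but 1 sample were dropped, and TMM and limma were applied. Versions and the strand setting are not given in the sources used here. The deposited values are log2 CPM at TMM-scaled library sizes with a prior count of 3. Whole reads were recovered from them, within 0.05 of a whole number for 100% of values under 50 reads.

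Symbols came from RefSeq by GeneID. Each experiment was fitted with limma 3.58.1 (R 4.3.3) on its 12 libraries, with a mean per arm, an intensity trend and no block, and p-values were adjusted by Benjamini-Hochberg over all genes of a table, two-sided. No test was made across tables. Differences are on the log2(CPM) scale with the prior count, which understates changes of low genes. Replicate numbers were not taken to pair libraries. Gene lengths used the GENCODE 44 exon union. Named genes were the 5 members, up to 4 called genes per list and comparison with the largest log2 change, from which examples are given, the 3 genes most like each member, and measured genes that overlap a member. The members and lists were chosen with earlier results of these data known. Scripts were tested on simulated data. The alternatives were a stricter filter, only the libraries compared, a replicate block, other scalings, prior counts and voom, a length and GC trend (spline with 4 degrees of freedom), and leaving out each library. A count of reads is subject to counting error, and depth limited KDM6B most.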

Additional observations from a re-analysis of the deposited data

Results flagged for a closer look

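The cisplatin effect differed between sh6A+6B and pLKO.1 cells by limma for 4 genes, with log2 differences of -0.23 for KDM6B, -0.22 for KDM5A, -0.14 for KDM5C and -0.12 for KDM5B. Under a length and GC trend these became -0.077, -0.053, -0.021 and 0.037, and none passed.

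KDM5B had log2 differences of opposite sign with GSK-J4 alone in the 2 lines, with all 3 treated libraries below all 3 controls in NT2/D1-A4 (-0.08) and all 3 above in 2102EP-C1 (0.08). This separation was not counted over all genes. By limma KDM5B did not pass in NT2/D1-A4 (adjusted p = 0.13) and passed in 2102EP-C1 (adjusted p = 0.046), where the value was -0.0075 with the length and GC trend removed and the call was lost in 9 of 12 fits without 1 library. The difference between the lines was not tested.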

How the results depend on the processing

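The KDM6B rise with GSK-J4 and the KDM6A and KDM6B falls with sh6A+6B kept their direction and their side of the threshold under every alternative, with KDM6B at 0.852 to 0.934 in NT2/D1-A4 and 0.767 to 0.903 in 2102EP-C1 for GSK-J4 alone. The cause of the changes below was not tested. With a length and GC trend removed, the number of the 5 genes called was 4 for GSK-J4 alone in NT2/D1-A4, and in 2102EP-C1 it was 0 for cisplatin within GSK-J4 cells and 4 for GSK-J4 within cisplatin-treated cells. In the knockdown experiment it was 3 for cisplatin within sh6A+6B cells and 1 for the difference of the cisplatin effects.

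The log2 change then took the other sign for several members. In NT2/D1-A4, KDM5A was at -0.025 for cisplatin within GSK-J4 cells. In 2102EP-C1 with GSK-J4 alone, KDM6A was at -0.0071 and KDM5B at -0.0075. For cisplatin within GSK-J4 cells, KDM6A was at -0.029 and KDM6B at 0.102, for GSK-J4 within cisplatin-treated cells KDM5C was at 0.015 and KMT2D at 0.065, and for the difference of the cisplatin effects KDM6B was at 0.065. In the knockdown experiment KDM6A was at -0.033 for cisplatin alone and KDM5B at 0.037 for the difference of the cisplatin effects. CXXC1 was at 0.004 for sh6A+6B alone. SALL4, SDHB and SIN3B were at 0.005, -0.017 and 0.029 for cisplatin within sh6A+6B cells, and EED, MORF4L1 and SDHD at -0.041, -0.003 and -0.040 for sh6A+6B within cisplatin-treated cells. The same trend with the replicate block gave these same values.

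With scaling to library size alone, GSK-J4 alone in NT2/D1-A4 called 4 of 5, KDM6A included at 0.102, cisplatin alone in 2102EP-C1 called 3, and KDM5C (cisplatin alone, NT2/D1-A4) was at 0.0044, KDM5A (GSK-J4 alone, 2102EP-C1) at 0.014 and KDM5A (sh6A+6B alone) at 0.0093. Fitting only the libraries compared gave 1, 3 and 0 of 5 in 2102EP-C1 for GSK-J4 alone, cisplatin alone and cisplatin within GSK-J4 cells, and the stricter filter and voom each gave 2 of 5 for cisplatin alone. The per-kilobase ratio of KDM6B to KDM6A in 2102EP-C1 with GSK-J4, and with GSK-J4 and cisplatin, was -0.99 and -1.06 by the longest transcript and -1.98 and -2.05 by the MANE Select transcript, the latter chosen after seeing the data.

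Leaving out 1 library at a time gave 0 to 1 of 5 genes for cisplatin within GSK-J4 cells in each line, 2 to 4 for GSK-J4 within cisplatin-treated cells in NT2/D1-A4, and in 2102EP-C1 1 to 2 for GSK-J4 alone, 1 to 3 for cisplatin alone and 0 to 1 for the difference of the cisplatin effects. In NT2/D1-A4, KDM5A ran from -0.059 to 0.0068 for cisplatin alone and -0.054 to 0.060 within GSK-J4 cells, KDM5C from -0.052 to 0.063 for GSK-J4 within cisplatin-treated cells, and KDM6B, KDM5B and KDM5A from -0.019 to 0.063, -0.052 to 0.0084 and -0.025 to 0.088 for the difference of the cisplatin effects. In 2102EP-C1, KDM5A ran from -0.028 to 0.029 with GSK-J4 alone and -0.040 to 0.017 for cisplatin within GSK-J4 cells, and KDM6B from -0.122 to 0.014 in the latter. KDM5A ran from -0.018 to 0.0053 with sh6A+6B alone.

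Same-numbered libraries deviated from their arm means with correlations of -0.300 to 0.501, and 7 of 18 were over 0.1 in the knockdown experiment, where sh6A+6B against sh6A+6B with cisplatin gave 0.477, 0.501 and 0.068. Between pLKO.1 with cisplatin and sh6A+6B, which were not compared directly, the values were 0.406, 0.103 and 0.147. In NT2/D1-A4, 4 of 18 were over 0.1, and cisplatin against GSK-J4 with cisplatin gave 0.332, 0.082 and 0.475. In 2102EP-C1 with GSK-J4, 2 of 18 were over 0.1. In no pair of arms compared directly were all 3 over 0.1, and the numbers were not taken to pair libraries. The replicate block left all 15 counts of the 5 genes as they were, with 2 of 5 for GSK-J4 alone in both lines and 4 of 5 for sh6A+6B alone. Over all genes, the calls moved by over 1.5 times for cisplatin alone in NT2/D1-A4 (1550, then 2431 with only the libraries compared and 2631 with the length and GC trend), within GSK-J4 cells in NT2/D1-A4 (207, then 32 and 690), for the difference of the cisplatin effects in NT2/D1-A4 (7, then 21 with that trend), and in 2102EP-C1 for cisplatin alone (695, then 2054 and 1060) and within GSK-J4 cells (2682, then 1447 with only the libraries compared). Leaving out 1 library moved these all-gene counts, against which the 5 genes are read, by over 1.5 times in 42 fits, all for cisplatin effects in the GSK-J4 experiments. In NT2/D1-A4 they ran from 765 to 2304 for cisplatin alone (lowest without cisplatin replicate 2), 35 to 638 within GSK-J4 cells (without combined replicates 2 and 1) and 1 to 12 for the difference (highest without combined replicate 1). In 2102EP-C1 they ran from 329 (without control replicate 1) to 1262 for cisplatin alone, 1356 (without GSK-J4 replicate 2) to 4684 within GSK-J4 cells, and 120 (without GSK-J4 replicate 1) to 2435 for the difference, from 405, each highest without GSK-J4 replicate 3.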
